A study of Homo sapiens with 8 samples.

Results

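The cytosolic HSP70 and HSP110 chaperones and their co-chaperone BAG3 were followed here across TrxR1 loss and glucose deprivation. The 7 genes HSPA6, HSPA8, HSPA14, HSPA4, HSPA4L, HSPH1 and BAG3 were taken from the deposited expression table by gene symbol. All 7 were among its 13730 genes, and all 7 passed the filter on low values that left 13057 genes for testing.

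HSP70 proteins bind exposed hydrophobic stretches of unfolded or newly made proteins and release them in a cycle driven by ATP. J-domain proteins (the DNAJ family) deliver clients and speed ATP hydrolysis, whereas nucleotide exchange factors, among them the HSP110 proteins and the BAG proteins, help ADP leave so that the client is let go. HSPA8 is the constitutive cytosolic HSP70, HSPA6 is a strictly stress-inducible one found in humans but not in mice, and HSPA14 is an HSP70-like protein of the ribosome-associated complex. HSPH1, HSPA4 and HSPA4L are the cytosolic HSP110 proteins. BAG3 joins HSP70 to small heat shock proteins and to autophagy. Many genes of this system are activated by heat shock factor 1 (HSF1), which binds heat shock elements made of alternating GAA and TTC units.

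The series asked how loss of thioredoxin reductase 1 (TrxR1, encoded by TXNRD1), an NADPH-dependent enzyme that reduces thioredoxin, acts together with glucose deprivation on glioblastoma cells. All libraries came from LN229-TAZ(4SA), human glioblastoma cells of the LN229 line carrying TAZ(4SA), a construct that the control cells therefore have too. There were 4 groups of 2 libraries each: control (EV) and TrxR1 knockout (KO) cells, each in regular and in glucose-deprived medium. The number of knockout clones and the length of deprivation are not given in the sources used here, and the labels do not say that the 2 libraries of a group were separate cultures, so p-values measure only the spread between libraries, which may be technical.

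Each library held between 70083018 and 107229069 reads over the 13730 deposited genes, as recovered from the steps of the deposited values. Reads outside these genes are not counted. The column headers name the deprived groups with a suffix that the labels do not spell out, and it was read as glucose-deprived because it is the only treatment of the series besides regular medium. TXNIP, a gene that glucose induces, was lower in those columns, with fitted log2 differences of -3.04 in EV and -3.23 in KO cells. TXNRD1 mRNA did not mark the knockout in regular medium, with means of 261.7 CPM (reads of a gene scaled to a common library total) in EV and 247.2 in KO libraries (log2 fold change -0.083, adjusted p = 0.19). In deprived medium TXNRD1 was lower in KO cells (-0.47, adjusted p = 2.0e-05). These values are of mRNA and do not measure the protein. Of 11 fixed markers of the line, VIM (2897 to 3696 CPM) and WWTR1, the TAZ gene (306.5 to 362.3 CPM), were high. NES, CD44, CCN1 and CCN2 were at 67.8 CPM or more in every library, and SOX2 was at 15.1 to 56.0 CPM. ANKRD1 (2.07 to 3.80 CPM), SOX9 (4.93 to 7.95 CPM) and OLIG2 (at most 16.9 CPM) were low. The astrocyte marker GFAP was near background (0.675 to 1.41 CPM). No library lacked the construct, so the WWTR1 level does not show that TAZ(4SA) was present. Of 7 markers of other cells, 2 were in the table (CD68 at 24.8 to 54.1 CPM and RBFOX3 at 0.215 to 1.09 CPM).

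The promoters of the members differ in whether they hold a canonical heat shock element, and 4 are shown because their genes carry the largest or the most contrasting changes. The sequences are RefSeq promoters on build GRCh38.p14, from 250 bases before to 50 bases after the annotated start, printed 5′ to 3′ on the strand of the gene. Capitals mark heat shock elements of 3 units, GAANNTTCNNGAA or TTCNNGAANNTTC, and of 2 units, GAANNTTC or TTCNNGAA, searched on both strands (each 3-unit form is the reverse complement of the other, each 2-unit form of itself, and the 2-unit form lies within the 3-unit one).
HSPA6: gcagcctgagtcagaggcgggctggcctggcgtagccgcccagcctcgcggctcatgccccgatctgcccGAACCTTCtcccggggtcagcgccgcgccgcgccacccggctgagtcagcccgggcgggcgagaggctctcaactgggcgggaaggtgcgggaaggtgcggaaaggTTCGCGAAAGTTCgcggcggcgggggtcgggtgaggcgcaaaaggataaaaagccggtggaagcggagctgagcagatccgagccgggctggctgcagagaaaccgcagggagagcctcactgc
HSPA8: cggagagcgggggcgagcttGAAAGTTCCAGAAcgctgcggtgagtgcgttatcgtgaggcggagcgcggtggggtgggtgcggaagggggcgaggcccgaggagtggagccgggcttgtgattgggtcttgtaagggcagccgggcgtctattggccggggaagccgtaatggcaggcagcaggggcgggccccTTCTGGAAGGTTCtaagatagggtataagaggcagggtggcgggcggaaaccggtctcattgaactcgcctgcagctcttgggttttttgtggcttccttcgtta
HSPH1: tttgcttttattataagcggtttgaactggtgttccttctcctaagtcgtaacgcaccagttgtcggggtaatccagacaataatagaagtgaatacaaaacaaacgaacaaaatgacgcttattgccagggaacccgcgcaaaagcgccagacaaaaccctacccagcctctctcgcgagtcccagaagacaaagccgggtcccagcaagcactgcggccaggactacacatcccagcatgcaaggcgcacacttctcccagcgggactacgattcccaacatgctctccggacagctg
BAG3: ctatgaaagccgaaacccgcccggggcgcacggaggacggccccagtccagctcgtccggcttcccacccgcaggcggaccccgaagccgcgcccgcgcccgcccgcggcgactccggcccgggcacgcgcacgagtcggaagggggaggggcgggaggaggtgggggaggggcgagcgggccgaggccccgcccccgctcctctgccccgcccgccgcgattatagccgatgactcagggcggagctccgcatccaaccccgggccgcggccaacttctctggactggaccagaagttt
HSPA6 lies at chr1:161524290-161524589 on the plus strand, HSPA8 at chr11:123062087-123062386 on the minus strand, HSPH1 at chr13:31162339-31162638 on the minus strand and BAG3 at chr10:119651130-119651429 on the plus strand. The HSPA6 promoter holds the 3-unit element TTCGCGAAAGTTC, whose first base lies 74 bases before the start, and a separate 2-unit element, GAACCTTC, at 180 bases. The HSPA8 promoter holds 2 elements of 3 units, GAAAGTTCCAGAA at 230 bases and TTCTGGAAGGTTC at 55 bases before the start. Neither form was found in the HSPH1, BAG3 or HSPA4 windows, and the second of 3 HSPA4L promoters holds a 2-unit element, TTCTCGAA. RefSeq promoters matched 6 of the 7 members by symbol, with 8 promoters in all. Over all 35116 promoters in the table, 0.490% hold the 3-unit and 13.5% the 2-unit form, and a 2-unit match is thus much the more common. These matches describe letters in a 300-base window and no binding was measured.

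In glucose-deprived medium every member was higher in KO than in EV cells, from 1.17-fold for HSPA14 to 8.49-fold for HSPA6. Of the 7 members, 7 rose and 0 fell (limma; also 0 lower at an unadjusted p under 0.05 and with voom weights), where 9.04% of all tested genes were called higher and 10.6% lower. The median log2 fold change of the members was 0.95, against -0.0057 over all tested genes. The members were chosen with earlier results of these data known, so these counts are a description and no independent support. In regular medium 2 of the 7, HSPA6 and BAG3, rose and 0 fell in KO cells (3 higher and 0 lower at an unadjusted p under 0.05, and 0 lower with voom weights), where 3.87% of tested genes were called higher and 3.38% lower. The median there was 0.058. These values are relative to the scaled size of each library, so a higher level per cell and more cells with that level cannot be told apart.

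Deprivation divided the members. In EV cells 2 rose (HSPA6 and BAG3) and 5 fell, while 37.5% of all tested genes were called higher and 38.7% lower. In KO cells 4 rose (HSPA6, BAG3, HSPH1 and HSPA4L) and 3 fell, against 36.5% of tested genes called higher and 36.8% lower. Since most tested genes were called in one direction or the other, these counts are no result about the members, and the sizes below carry the description. The effect of the knockout was larger in deprived than in regular medium for 6 of the 7 (limma, interaction; 0 were smaller, 7 larger and 0 smaller at an unadjusted p under 0.05, and 0 smaller with voom weights). Over all tested genes 2.31% were called for a higher and 2.01% for a lower interaction.

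**Figure D1:**
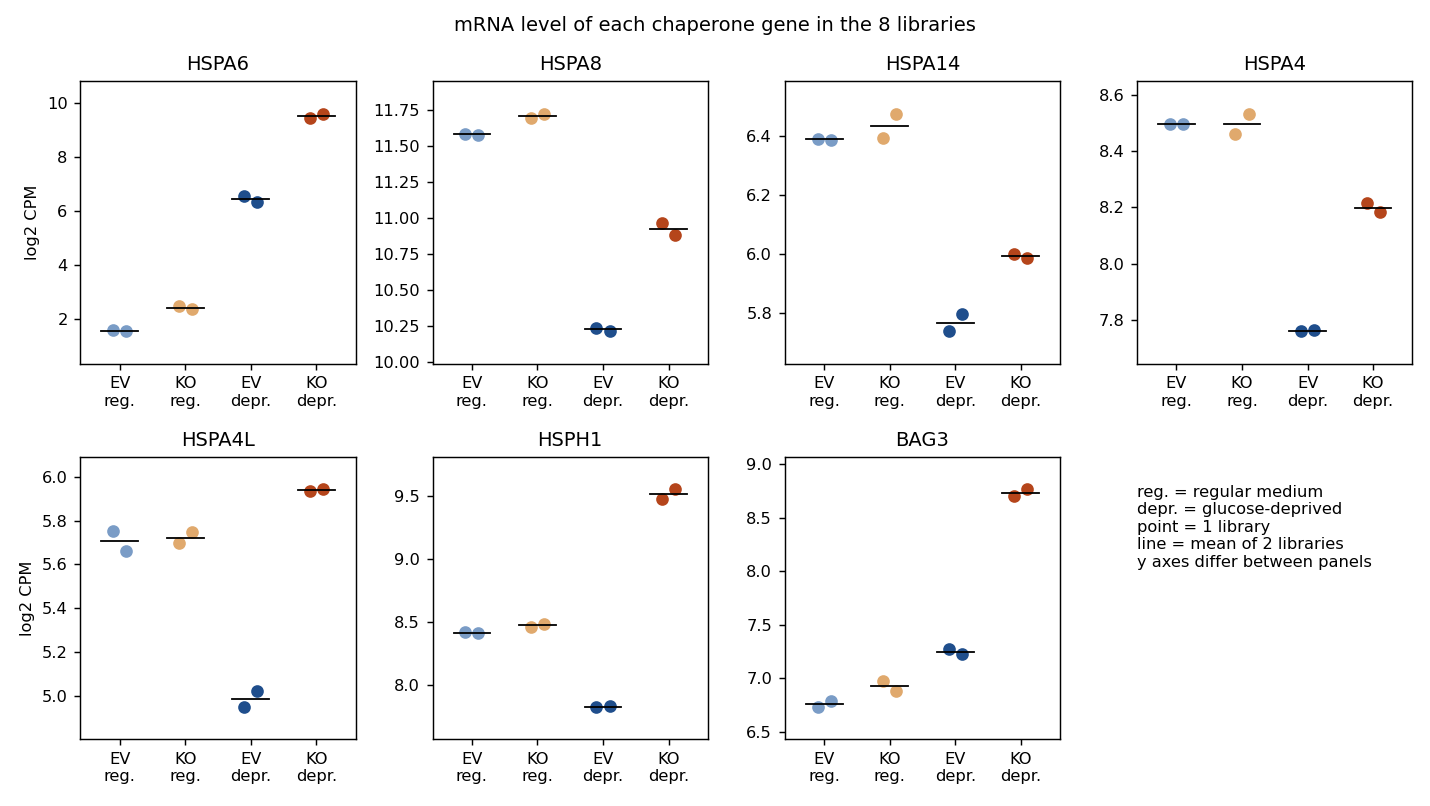
Level of each of the 7 genes (y axis, log2 CPM) in the 2 libraries of each of 4 groups (x axis); points are libraries. HSPA6 and BAG3 rise from left to right, HSPA8, HSPA14 and HSPA4 are lowest in deprived EV cells, and HSPA4L and HSPH1 are highest in deprived KO cells.

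HSPA6, the inducible HSP70, showed the widest range of the members. Its level was 2.96 and 2.88 CPM in the EV libraries and 5.53 and 5.03 CPM in the KO libraries of regular medium, 92.8 and 80.3 CPM in deprived EV libraries, and 693 and 775 CPM in deprived KO libraries. The 4 groups did not overlap, and the regular libraries rest on 226 to 459 reads against 67440 and 73116 in the deprived KO libraries. Deprivation raised HSPA6 29.3-fold in EV cells (log2 fold change 4.88 ± 0.077, SE, limma adjusted p = 8.1e-12) and 138.4-fold in KO cells (7.11 ± 0.077, adjusted p = 6.3e-13). By fold change it ranked 2nd of 13057 genes in EV and 1st in KO cells. The knockout raised it 1.80-fold in regular medium (0.85 ± 0.077, adjusted p = 1.7e-04) and 8.49-fold in deprived medium (3.09 ± 0.077, adjusted p = 4.1e-09, the 2nd highest of all tested genes).

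HSPA6 is a 1-exon gene at chr1:161524540-161526910 (GENCODE 29, GRCh38), and its nearest relative HSPA7, an annotated pseudogene, shares 45.5% of the 50-base stretches of its transcript (1057 of 2322). HSPA7 lay below the filter on low values and was not tested. Its level was 0.105 and 0.0587 CPM in regular EV, 0.108 and 0.103 in regular KO, 1.08 and 1.28 in deprived EV and 11.9 and 11.5 in deprived KO libraries. HSPA7 thus amounted to 1.36% to 2.80% of the HSPA6 level in each group. Reads from the shared stretches could be assigned to either gene, so the split is uncertain, although the sum moves the same way. No 50-base stretch of HSPA6 was shared with HSPA1A or HSPA1B, the other inducible HSP70 genes. Neither of them was among the 13730 genes of the deposited table, so their levels are unknown here.

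HSPA8, the constitutive HSP70, had the highest level per length of the members in every group and fell under deprivation. It stood at 3073 and 3052 CPM in the EV and 3313 and 3381 CPM in the KO libraries of regular medium, at 1209.9 and 1190.1 CPM in deprived EV and at 1995 and 1885 CPM in deprived KO libraries. The order of the groups was KO regular, EV regular, KO deprived and EV deprived, with no overlap. Deprivation lowered it 2.55-fold in EV cells (log2 fold change -1.35, limma adjusted p = 2.8e-10, the 161st lowest of 13057) and less in KO cells (-0.79, adjusted p = 1.5e-08). The difference between these responses was 0.56 ± 0.050 (adjusted p = 2.4e-04). In deprived medium the KO level was 0.69 ± 0.035 log2 above the EV level (adjusted p = 1.1e-06). In regular medium the KO level was 0.13 ± 0.035 log2 higher, which was not called (adjusted p = 0.056). Over the alternative settings its adjusted p ran from 0.012, without the deprived KO library b, to 0.30, without the EV regular library a.
HSPA8 has 11 other genes, mostly its pseudogenes, that share 15.4% of its 50-base stretches, and 2 small nucleolar RNA genes overlap 175 bases of its annotated exons.

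HSPA14, the ribosome-associated HSP70-like gene, fell under deprivation in both genotypes. It ranged over 83.8 to 83.9 CPM in regular EV and 84.1 to 89.0 CPM in regular KO libraries, and over 53.4 to 55.6 CPM in deprived EV and 63.4 to 64.0 CPM in deprived KO libraries. Deprivation lowered it in EV (-0.62, limma adjusted p = 1.9e-07) and in KO cells (-0.44, adjusted p = 2.9e-06), and the KO cells stood 0.23 ± 0.040 log2 higher in deprived medium (adjusted p = 0.0044). Without the deprived EV library a this value was 0.20 with an adjusted p of 0.057. The interaction was 0.18 and was not called (adjusted p = 0.099), but was called at 0.046 without the KO regular library b. In GENCODE, 2 entries carry the symbol HSPA14, sharing 460 exon bases. The table has 1 value for the symbol, and which entry it counts is not given. DNAJC2, a J-domain partner of HSPA14 at the ribosome that was picked for this role after its values were seen, rose by 0.26 in deprived KO cells (adjusted p = 0.0050) and fell by 0.61 with deprivation in EV cells.

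HSPH1, the stress-responsive HSP110, moved in opposite directions in the 2 genotypes. Its level was 343 and 341 CPM in regular EV, 354 and 359 CPM in regular KO, 227 and 228 CPM in deprived EV, and 712 and 753 CPM in deprived KO libraries. The deprived KO libraries are highest and the deprived EV libraries lowest, with the regular groups between them and no overlap. Deprivation lowered HSPH1 in EV cells (log2 fold change -0.59, limma adjusted p = 8.0e-08) and raised it in KO cells (1.04, adjusted p = 1.5e-09). In deprived medium KO cells had 3.22-fold more than EV cells (1.69 ± 0.034, adjusted p = 9.0e-10, the 8th highest of 13057 genes), and the interaction was 1.63 ± 0.048 (adjusted p = 4.5e-08). In regular medium the difference was 0.058 ± 0.034 and was not called (adjusted p = 0.33).

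HSPA4L, the HSPA4-like gene, had the same reversal on a smaller scale. Libraries lay at 53.9 and 50.6 CPM in regular EV, 51.8 and 53.7 CPM in regular KO, 30.9 and 32.5 CPM in deprived EV, and 61.2 and 61.5 CPM in deprived KO cells. The regular EV and KO libraries overlapped, and their difference of 0.014 was not called (limma adjusted p = 0.89). Deprivation lowered HSPA4L in EV cells (-0.72 on the log2 scale, adjusted p = 1.6e-07) and raised it in KO cells (0.22, adjusted p = 0.0014). The deprived KO libraries were 0.95 ± 0.046 higher than the deprived EV libraries (adjusted p = 6.6e-07), and the interaction was 0.94 ± 0.065 (adjusted p = 3.3e-05). An antisense gene and an opposite-strand pseudogene overlap 719 bases of HSPA4L exons, and the library kit is not described as keeping strand, so reads of both cannot be told apart there. HSPA4L also shares 7.20% of the 50-base stretches of its transcript (773 of 10741) with 723 other genes.

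HSPA4, the other widely expressed HSP110, fell in both genotypes and fell less in the knockout. Its libraries were at 362 and 361 CPM in regular EV, 352 and 371 CPM in regular KO, 217 and 217 CPM in deprived EV, and 298 and 291 CPM in deprived KO cells. The regular groups overlapped (difference 0.00076, limma adjusted p = 0.99). The response to deprivation was -0.74 in EV (adjusted p = 1.5e-08) and -0.30 in KO cells (adjusted p = 1.6e-05). The deprived KO level was 0.44 ± 0.034 above the EV level (adjusted p = 2.3e-05), and the interaction was 0.44 ± 0.048 (adjusted p = 8.9e-04).

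BAG3, the co-chaperone that hands HSP70 clients to autophagy, rose in both genotypes. It was at 106 and 110.4 CPM in regular EV, 125 and 118 CPM in regular KO, 155 and 149 CPM in deprived EV, and 417 and 435 CPM in deprived KO libraries, with no overlap between groups. Deprivation raised BAG3 by 0.49 in EV cells (limma adjusted p = 1.5e-06) and by 1.81 in KO cells (adjusted p = 1.2e-10). The knockout raised it 2.80-fold in deprived medium (1.49 ± 0.041, adjusted p = 1.0e-08, the 14th highest of 13057), and the interaction was 1.32 ± 0.059 (adjusted p = 1.2e-06). The knockout effect in regular medium was 0.17 ± 0.041 (adjusted p = 0.039). That call was lost without a variance trend (adjusted p = 0.117), in a fit of the 2 groups alone (0.058), and without the EV regular library a (0.31) or b (0.14), the KO regular library a (0.145), or the EV deprived library a (0.074) or b (0.074).

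**Figure D2:**
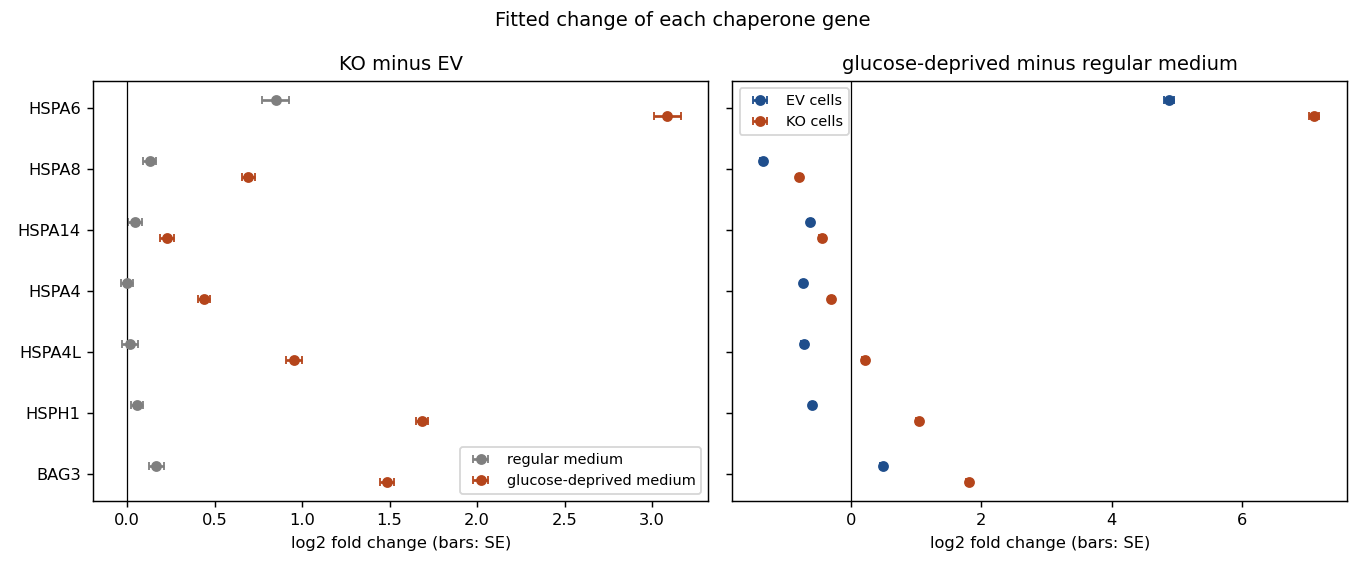
Fitted log2 fold changes (x axis) of the 7 genes (y axis) with bars for the SE; the left panel shows KO against EV in the 2 media and the right panel shows deprived against regular medium in the 2 genotypes. In deprived medium every knockout effect is above 0, and HSPH1 and HSPA4L lie on opposite sides of 0 in the 2 genotypes.

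**Figure D3:**
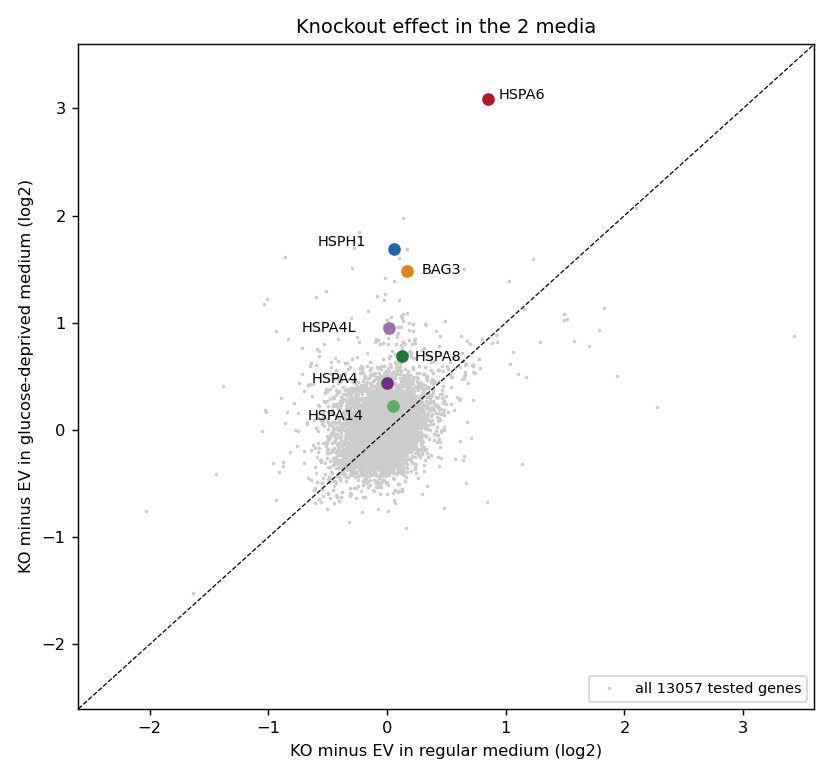
Knockout effect in regular medium (x axis, log2) against that in deprived medium (y axis, log2), with the tested genes in the background and the 7 genes named; 1 gene lies outside the axes. The 7 genes lie above the diagonal, at an interaction of 0.18 to 2.24, where the median over all tested genes was -0.0051.

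Levels were compared per kilobase of principal transcript, so that genes of different length can be set side by side. HSPA8 made up most of the summed level of HSPA6, HSPA8 and HSPA14 in every group. The summed level of HSPA6, HSPA8 and HSPA14 was 1289 ± 6.02 CPM per kb (SD, n = 2) in regular EV, 1407 ± 21.3 in regular KO, 552.3 ± 8.60 in deprived EV and 1131 ± 7.27 in deprived KO cells. HSPA6 held 0.0955% and 0.158% of that sum in regular EV and KO cells, 6.60% ± 0.571 in deprived EV and 27.4% ± 2.35 in deprived KO cells. HSPA8 accordingly went from 96.5% and 96.6% to 88.2% and 69.7%. The sum leaves out HSPA1A and HSPA1B, which were not in the table, so shares of all HSP70 mRNA cannot be given. Using coding lengths, added after the data were seen, the HSPA6 share was 6.41% in deprived EV and 26.8% in deprived KO cells.

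Within the HSP110 genes the sum of HSPH1, HSPA4 and HSPA4L was 145.6 ± 0.478 CPM per kb in regular EV, 148.4 ± 3.47 in regular KO, 91.8 ± 0.244 in deprived EV and 207.8 ± 4.53 in deprived KO cells. HSPH1 held 45.3%, 46.2%, 47.8% and 67.9% ± 1.19 of it in the same order. The level of HSPH1 per kb relative to HSPA4 was 0.880, 0.916, 0.976 and 2.32 ± 0.130. The HSPA6 plus HSPA8 level per kb divided by that of BAG3 was 29.6 ± 0.925 in regular EV and 28.8 ± 1.65 in regular KO cells. It was 8.86 ± 0.0589 in deprived EV and 6.63 ± 0.236 in deprived KO cells. Since HSPA1A and HSPA1B are missing from it, this ratio does not give the balance of all HSP70 mRNA to BAG3. Over all 7 genes the summed level was 1476 ± 5.38 in regular EV, 1602 ± 22.8 in regular KO, 703.2 ± 9.81 in deprived EV and 1504 ± 2.09 CPM per kb in deprived KO cells, so the deprived KO sum lay between the 2 regular sums.

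**Figure D4:**
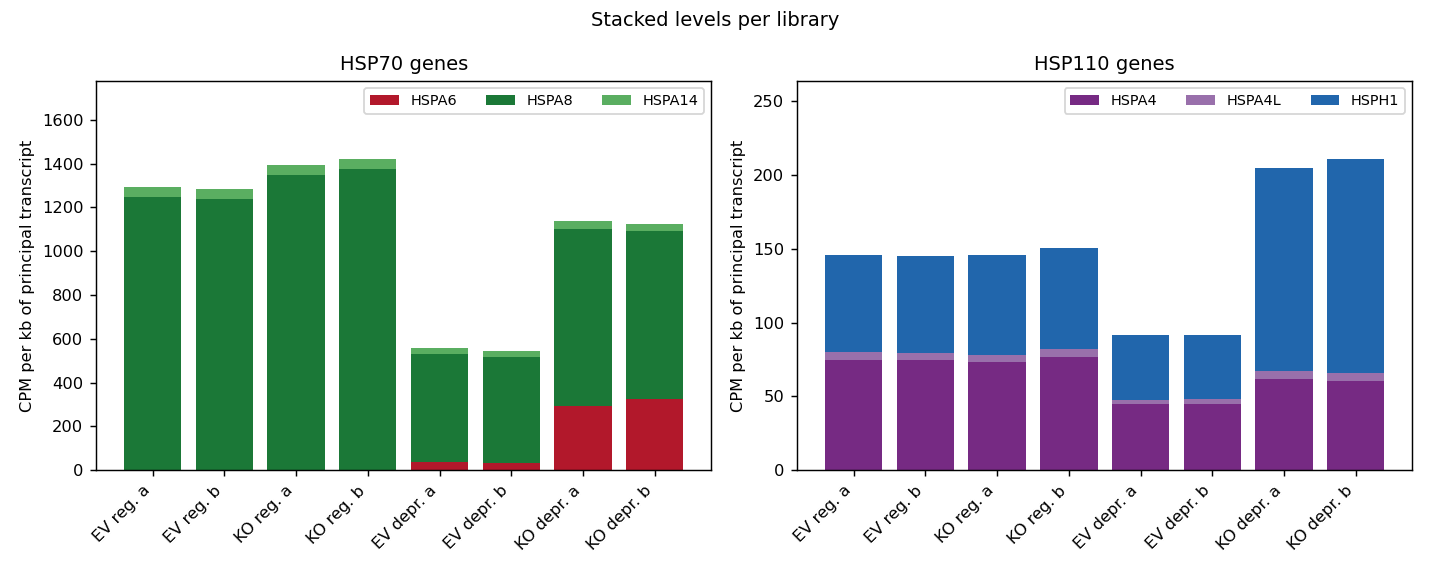
Stacked levels (y axis, CPM per kb of principal transcript) of the HSP70 genes and of the HSP110 genes in each of the 8 libraries (x axis), bars starting at 0. The HSPA6 part of the HSP70 bars is visible in the deprived libraries and is largest in the KO libraries, and the HSP110 bars are lowest in deprived EV and highest in deprived KO libraries.

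The genes that work with the members were read from 7 lists of partners, whose counts are to be read against the shares of all tested genes given above. Of 14 J-domain co-chaperones, 7 rose and 1 fell in deprived KO against EV cells, with a median log2 difference of 0.13. DNAJB1, the main J-domain partner of inducible HSP70, rose from a mean of 378.8 CPM in deprived EV to 1490 CPM in deprived KO libraries (1.98 ± 0.037, limma adjusted p = 8.3e-10). DNAJA1 rose by 1.08 (adjusted p = 4.1e-08), DNAJB4 by 1.00 (adjusted p = 2.3e-06) and DNAJB6 by 0.58 (adjusted p = 1.3e-05). Deprivation itself raised 3 and lowered 10 of the 14 in EV cells, and DNAJA1 was among those lowered (-1.40). In regular medium 2 of the 14 were called higher and 1 lower in KO cells, with DNAJA1 among the higher (0.14, limma adjusted p = 0.044).

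Among 5 other exchange factors 3 rose and 0 fell in deprived KO cells (limma; also 0 lower at an unadjusted p under 0.05): BAG2 by 0.57, BAG1 by 0.22 and HSPBP1 by 0.26 (adjusted p = 3.9e-05, 0.0047 and 0.048). Of 13 other partners of the cycle, including HSP90 and its co-chaperones, 7 rose and 0 fell (10 higher and 0 lower at an unadjusted p under 0.05; median 0.38). HSP90AA1, the inducible HSP90, rose by 0.87 (adjusted p = 4.8e-07), with a mean of 2048 CPM in deprived EV and 3742 CPM in deprived KO libraries, and CHORDC1 by 0.96, FKBP4 by 0.81 and AHSA1 by 0.48. In EV cells deprivation lowered 12 of these 13 and raised 0 (0 higher at an unadjusted p under 0.05). In regular medium 1 of the 5 exchange factors, BAG2 (0.22), was called higher in KO cells. Of the 13 other partners 3 were called higher there, among them FKBP4 (0.21) and AHSA1 (0.15). In either list 0 were lower, also at an unadjusted p under 0.05.

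Of 10 BAG3 partners in chaperone-assisted autophagy, 4 rose and 1 fell in deprived KO cells (median 0.20). The small heat shock protein HSPB1 rose by 0.98 (limma adjusted p = 4.8e-05), the autophagy receptor SQSTM1 by 0.60 (adjusted p = 1.8e-06) and MAP1LC3B by 0.36 (adjusted p = 1.4e-04), whereas WIPI1 fell by 0.21 (adjusted p = 0.016). SQSTM1 was also higher in the knockout in regular medium (0.73, adjusted p = 5.4e-07).

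A further list held other HSP70 and HSP110 relatives, 5 of which were tested: HSPA5, HSPA9, HSPA12A, HSPA13 and HYOU1. All 5 rose with deprivation in EV cells (median 1.36) and in KO cells (median 1.33), and in deprived medium 2 were higher and 3 lower in KO than in EV cells. HSPA5, the HSP70 of the endoplasmic reticulum, had means of 967 CPM in regular EV and 8796 CPM in deprived EV libraries and was 0.15 lower in deprived KO cells (limma adjusted p = 0.025). Its HSP110 partner HYOU1 was 0.31 lower (adjusted p = 0.0010) and HSPA13 0.20 lower (adjusted p = 0.021), while the mitochondrial HSPA9 was 0.19 higher (adjusted p = 0.0045) and HSPA12A 0.18 higher (adjusted p = 0.028). In regular medium 1 of the 5 was called higher and 1 lower in KO cells. The lower was HSPA5, by 0.38 (limma adjusted p = 4.2e-04), with a mean of 745 CPM in regular KO libraries. For this list 0 of 5 passed the interaction test in either direction (2 higher and 1 lower at an unadjusted p under 0.05).

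Of 31 HSF1 targets other than the members, 27 rose and 0 fell in deprived KO against EV cells (limma; 28 higher and 0 lower at an unadjusted p under 0.05), with a median of 0.56. Like the other lists, this one was chosen with earlier results of these data known, so its counts only describe. The list shares 5 genes with the J-domain list, 7 with the other partners and 4 with the BAG3 partners. It also shares 1, IER5, with the list of heat shock factors and regulators below, so these counts are not separate. Deprivation raised 7 and lowered 22 of the 31 in EV cells (median -0.45) and raised 13 and lowered 11 in KO cells (median 0.055). The interaction was called higher for 24 and lower for 0 (1 lower at an unadjusted p under 0.05), with a median of 0.46. In regular medium 8 of the 31 were called higher and 1 lower in KO cells, with a median of 0.084. At an unadjusted p under 0.05 these counts were 12 and 4. Over all tested genes 3.87% were called higher and 3.38% lower there. HSF1 mRNA differed by 0.12 between deprived KO and EV cells and was not called (adjusted p = 0.28). A list of 9 genes held HSF1, the other heat shock factors HSF2 and HSF4, and regulators, and of these 2 rose and 1 fell. IER5, which promotes HSF1 activity, rose by 1.21 (limma adjusted p = 6.0e-06) and IER5L by 1.24 (adjusted p = 0.016). HDAC6 fell by 0.32 (adjusted p = 0.0043). The IER5L value rests on uneven libraries, at 7.54 and 17.1 CPM in deprived KO and 4.16 and 5.50 CPM in deprived EV cells.

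**Figure D5:**
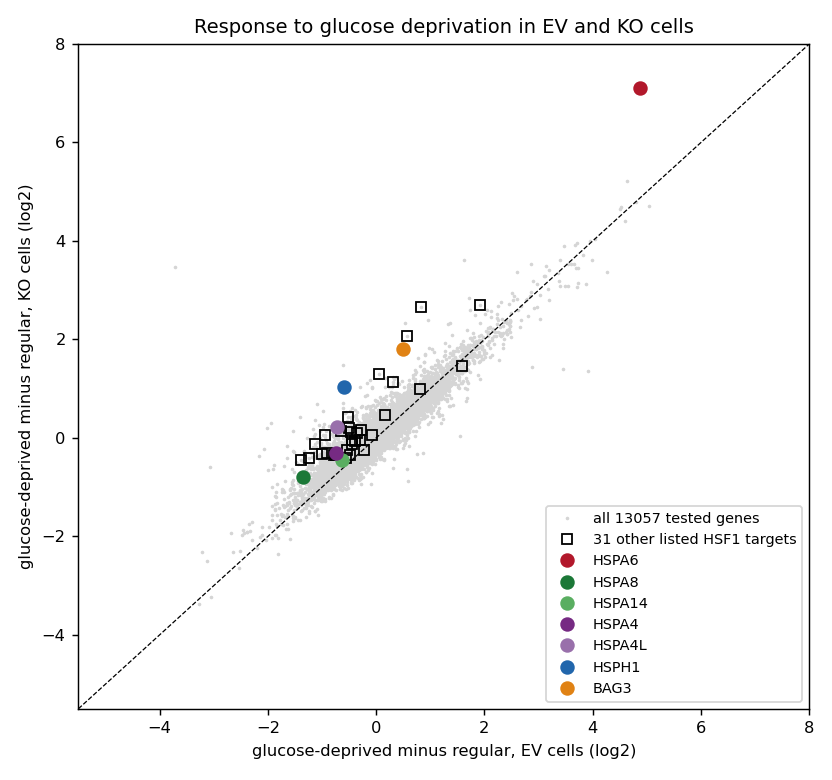
Response to glucose deprivation in EV cells (x axis, log2) against that in KO cells (y axis, log2) for the tested genes, with the 7 members and the 31 other HSF1 targets marked. Of the 31 targets, 29 lie above the diagonal, and HSPH1 and HSPA4L lie in the quadrant of a fall in EV and a rise in KO cells. Points above the diagonal have an interaction above 0, and its median over all tested genes was -0.0051.

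Over the 8 libraries, which the 7 genes share along with their scaling, some members had similar profiles. The correlation of log2 CPM was 0.990 between HSPA8 and HSPA4, 0.986 between HSPA8 and HSPA14 and 0.966 between HSPA14 and HSPA4. It was 0.92 between HSPA6 and BAG3, 0.85 between HSPA4L and HSPH1, 0.80 between HSPH1 and BAG3 and 0.78 between HSPA4 and HSPA4L. Between HSPA6 and HSPA8 it was -0.70. With 4 groups of 2 libraries these values mainly reflect the order of the groups. By the same measure, the tested gene outside the set whose profile was most like that of HSPA6 was ZFAND2A (0.998), followed by FOSB (0.995). BAG3 was closest to DNAJB1 (0.997) and RGS2 (0.995), HSPA4L to CACYBP (0.993) and HSP90AA1 (0.992), and HSPH1 to LRIF1 (0.987) and SNAI1 (0.982). HSPA8 was closest to SLC16A1 and YWHAG, HSPA4 to PYGO1 and PTGES3, and HSPA14 to SYCP2 and CCNE1, each at 0.995 or above.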

How the data were processed

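The 8 libraries were made from TRIzol-extracted RNA by SMART-Seq cDNA synthesis followed by Nextera tagmentation, per the labels' protocols. HISAT2, edgeR and build GRCh38 are named per the submitters' processing notes. The authors deposited 1 table of log2 CPM values for 13730 genes, and the column headers give groups without replicate numbers (libraries are called a and b by column order). A constant of 0.023 CPM and whole multiples of a library step (tolerance 0.05 read) fit 100% of genes, so reads could be recovered for checks. The range of 70083018 to 107229069 reads over these genes sets the precision of low values.

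From the deposited log2 values, genes with a mean of at least 0 entered a limma model (version 3.58.1, R 4.3.3) of all 4 groups with a variance trend and Benjamini-Hochberg adjustment over 13057 genes. Genes were called at an adjusted p under 0.05. The model was also run on simulated reads with a fixed spread, which checks the code and not the spread of these libraries. The interaction is the knockout effect in deprived medium minus that in regular medium. Levels per kilobase used the APPRIS principal transcript of GENCODE 29. Heat shock elements were searched in RefSeq promoters.

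The members and the partner lists were chosen with earlier results of these data known. Up to 4 called genes per list, by smallest adjusted p in deprived KO against EV cells, and the closest profiles by Pearson correlation are named, as are TXNRD1 and the markers. TXNIP, DNAJC2, HSPA12A and HSF1 were named after their values were seen. Alternatives covered scaling, filter, offset, variance trend, voom weights, 2-group fits and leaving out each library.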

Additional observations from a re-analysis of the deposited data

Results flagged for a closer look

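For 6 genes the effect of the TrxR1 knockout differed between the media by the test of the difference itself (limma interaction, adjusted p under 0.05). The difference in knockout effect, deprived minus regular, was 2.24 for HSPA6, 0.56 for HSPA8, 0.44 for HSPA4, 0.94 for HSPA4L, 1.63 for HSPH1 and 1.32 for BAG3, all on the log2 scale. HSPH1 and HSPA4L fell with deprivation in EV cells and rose with it in KO cells, and each of these 4 changes was called.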

How the results depend on the processing

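Of 518 recomputed values for single genes, 500 had the direction and call of the main analysis, 8 lost the call, 7 gained one and 3 changed sign. Every sign change was an uncalled difference near 0 in regular medium. Leaving out 1 library each, HSPA4 ranged from -0.036 (without KO regular b) to 0.037, and HSPA4L from -0.031 (without EV regular b; -0.011 without KO regular b) to 0.059. Without a variance trend 214 genes were called higher and 219 lower in regular KO cells, 152 higher and 71 lower for the interaction, and 1 member higher in regular KO cells. With 1 library left out, the genes called higher ranged from 99 to 703 in regular KO cells, from 450 to 1396 in deprived KO cells and from 102 to 889 for the interaction, and those called lower from 69 to 711, 393 to 1662 and 45 to 690. In regular medium the low counts came without EV regular a or b, KO regular a, or EV deprived a or b, and the high ones of genes called lower without KO deprived a or b. In deprived medium they came without EV deprived a or b, and for genes called lower also KO deprived b. For the interaction the counts were lower without EV regular or EV deprived a or b, and higher without KO deprived a, and for genes called lower they also moved without KO regular a or b or KO deprived b. Members called higher in regular KO cells ranged from 1 to 3. No paired analysis was possible because the column headers carry no replicate numbers.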
